A study of Mus musculus with 24 samples.

Results

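Nos2, Slc7a2, Asl, Odc1, Azin1, Amd1, Srm, Sms, Sat1 and Oat are genes that use arginine for nitric oxide and polyamines, beyond the arginases that split arginine into ornithine and urea. They were taken by symbol, by a rule that uses no measured value, although earlier results of these data were known when they were chosen. All 10 were found among the 17301 genes of the deposited table through their Ensembl identifiers. All 10 reached a mean of at least 1 RPKM (reads per kilobase of gene per M of a scaled library size) in at least 1 group and were tested.

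Arginine enters cells through cationic amino acid transporters, of which Slc7a2 encodes the form known from activated macrophages, and it can be remade from citrulline by argininosuccinate synthase and the lyase Asl. Inducible nitric oxide synthase, the product of Nos2, turns arginine into nitric oxide and citrulline, whereas arginase turns it into ornithine, from which ornithine decarboxylase (Odc1) makes putrescine. The synthases Srm and Sms lengthen putrescine to spermidine and spermine with a group supplied by Amd1, Azin1 protects ornithine decarboxylase from its antizyme, Sat1 marks polyamines for breakdown or export, and Oat diverts ornithine towards glutamate and proline.

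RNA was sequenced from 4 myeloid populations that were sorted by flow cytometry from the colon lamina propria (LP) of C57BL/6J animals and from adenomas of the colon in Apc Min/+ mice, in which a germline mutation of Apc leads to intestinal adenomas. The populations were F4/80hi CD11b+ macrophages with high or low MHCII (hereafter MHCIIhi and MHCIIlow), Ly6Chi MHCII- monocytes and Ly6Ghi F4/80- CD11b+ neutrophils, giving 8 groups of 3 libraries and a total of 24. A library stands for the pooled tissue of 13 to 15 mice that were 6 to 8 weeks old at the start of the experiment and 3 to 4 months old at collection. The mice with tumours had drunk dextran sodium sulphate, which inflames the colon. The methods give this treatment for control mice too, whereas the labels call the LP healthy. Apc genotype, tumour and possibly treatment therefore cannot be told apart in any tumour against LP comparison. Cell isolation differed with tissue as well. By the methods, the LP had a step to remove epithelium and a longer digestion than the tumours, and the density gradients were not the same. Both tissues were pooled over mice, so the p-values measure the spread between pools and not between mice.

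Levels are given as deposited, in log2 RPKM, a scale that is set per length and allows genes to be compared, and between 12.8 and 41.7 M reads per library lay on genes (median 26.4 M). The scaled library size, recovered from the values, was 7.67 to 12.5 M in tumour neutrophils, with 15.9 to 26.7 M reads on genes. LP neutrophils had 13.4 to 23.9 M, with 19.7 to 37.9 M reads, and monocytes 25.2 to 44.1 M, with 20.8 to 40.2 M. The part of this scaling in the neutrophil results, such as those of Asl, Azin1 and Sat1, was not tested. Whole reads could be recovered from the values, and reads carry no molecular identifiers, so the read numbers below cover counting error only. In macrophage groups the 7 macrophage markers (such as C1qa and Mertk) summed to 2921 to 6617 RPKM per library, against 44.4 to 346.9 in monocytes and neutrophils, and the 7 neutrophil markers summed to 11980 to 31210 RPKM in neutrophils, against 31.0 to 679.6 elsewhere. The 5 monocyte markers did not separate monocytes from neutrophils, with 323.2 to 660.1 RPKM in monocytes and 570.9 to 985.4 in neutrophils. Fibroblast markers (6) summed to 6.83 to 62.0 RPKM in LP libraries and 0.0128 to 1.57 in tumour libraries. In neutrophils, to which the tumour against LP results for Slc7a2, Asl, Amd1, Sat1 and Oat refer, B and plasma cell markers (6) summed to 358 to 1300 RPKM in LP and 0.660 to 20.1 in tumour, dendritic cell markers (7) to 93.3 to 187.3 and 2.81 to 20.6, and epithelial markers (9) to 16.8 to 74.4 and 173.9 to 344.8. The part of such other cells in the results was not tested. In bulk samples, fewer cells of a type and less RNA per cell cannot be told apart. Differences were tested with limma on the log2 RPKM of 12878 genes, with p-values adjusted over all of them within each comparison and called under 0.05.

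In MHCIIhi macrophages, 2 of the 10 genes were higher in tumour than in LP and 1 was lower, beside 8.01% of all genes tested called higher and 11.5% called lower. In MHCIIlow macrophages, 2 were higher and 3 lower, beside 11.5% and 11.8% of all genes. In monocytes none was called in either direction, beside 4.86% of all genes higher and 4.43% lower. Of the monocyte comparisons, 1 had an unadjusted p under 0.05 in limma, beside 2881 of the 12878 genes tested. Voom on the recovered reads called 0, beside 965 of all genes higher and 799 lower. In neutrophils, 3 were higher and 2 lower, beside 13.1% and 19% of all genes. The median log2 fold change over the 10 genes was −0.03 in MHCIIhi macrophages, −0.09 in MHCIIlow macrophages, −0.32 in monocytes and −0.21 in neutrophils, against 0.00, 0.06, 0.00 and −0.12 over all genes tested. The 10 genes therefore did not move as a block, and the account below takes them by role.

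**Figure D1:**
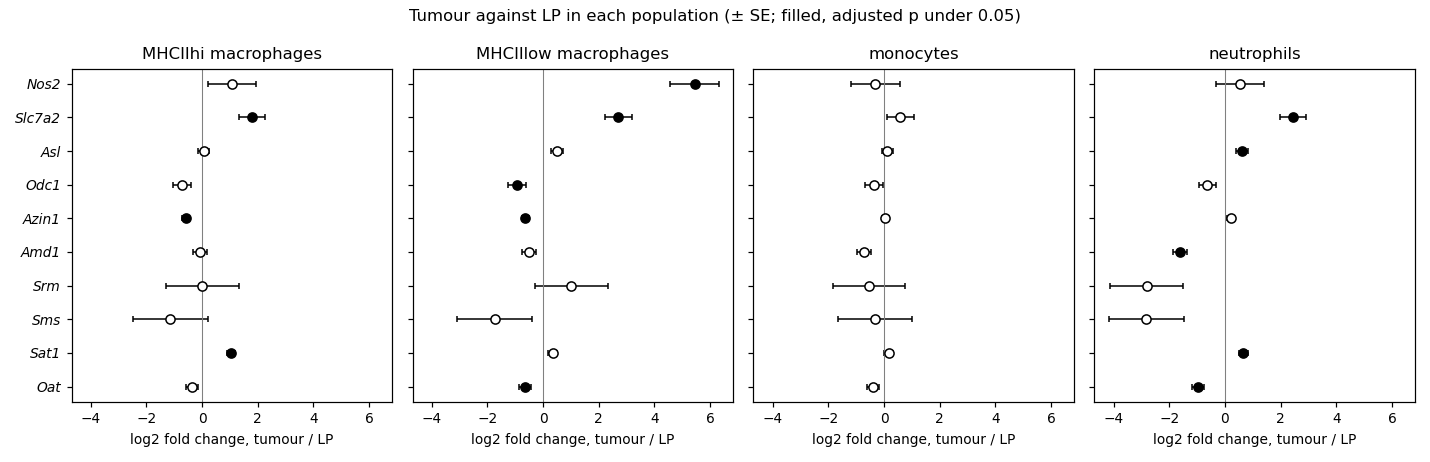
Log2 fold change of each gene between tumour and LP in 4 sorted populations, with standard errors and filled points for an adjusted p under 0.05. Slc7a2, Asl and Sat1 lay right of 0 and Odc1, Amd1, Sms and Oat left of 0 in all 4 panels, many of them without a call. Nos2 reached 5.44 in MHCIIlow macrophages.

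Nos2 (ENSMUSG00000020826.6, chr11:78920787-78960254 on GRCm38, plus strand) encodes the synthase that gives activated myeloid cells their nitric oxide. In LP macrophages it was low. The LP MHCIIlow libraries II, III and IV stood at −4.38, −4.43 and 0.39 log2 RPKM, from 8, 4 and 97 reads, and the LP MHCIIhi libraries III, IV and V at −0.90, 0.17 and −0.36. The tumour MHCIIlow libraries I, V and VII stood at 2.73, 2.97 and 2.21, from 738, 1435 and 543 reads, and the tumour MHCIIhi libraries I, V and VII at 1.00, 0.24 and 0.89. Each tumour library lay above every LP library of its subset, and in the tumours the MHCIIlow libraries lay above the MHCIIhi libraries.

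Between tumour and LP, Nos2 rose in MHCIIlow macrophages by 5.44 ± 0.87 on the log2 scale (standard error, 43.5-fold, limma adjusted p = 1.07e-04), while the difference in MHCIIhi macrophages was 1.08 ± 0.87 (adjusted p = 0.453). The difference between these 2 effects was 4.36 ± 1.23 and did not pass the threshold (adjusted p = 0.0872). LP MHCIIlow library IV decided much of these values: without it the rise was 7.04 (limma adjusted p = 1.27e-07) and the difference between subsets 5.96 (adjusted p = 2.93e-04, the lowest of 22 alternatives, which ran to 0.245), and without library II or III the rise was 4.66 or 4.63. Fitted on the 6 compared libraries alone, the rise kept its size but not its call (limma adjusted p = 0.0521, the highest of 15 alternatives, which ran from 1.27e-07), and on the log2(RPKM + 1) scale, which compresses low levels, it was 2.41.

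Monocytes and neutrophils carried far more Nos2 than macrophages in both tissues. LP monocyte libraries III, IV and V stood at 6.21, 6.10 and 5.49 log2 RPKM and tumour monocyte libraries I, II and V at 6.25, 4.70 and 5.92. LP neutrophils stood at 5.82, 6.28 and 4.45 and tumour neutrophils at 6.83, 6.43 and 4.94. These 4 groups overlapped with their neighbours in the order of means (6.07 ± 1.00 in tumour neutrophils, 5.93 ± 0.39 in LP monocytes, 5.62 ± 0.82 in tumour monocytes and 5.52 ± 0.95 in LP neutrophils; SD, n = 3), then came a gap to tumour MHCIIlow macrophages (2.64 ± 0.39), tumour MHCIIhi macrophages (0.71 ± 0.41), LP MHCIIhi macrophages (−0.37 ± 0.54) and LP MHCIIlow macrophages (−2.81 ± 2.77), of which the last 2 overlapped. Nos2 had the widest range of group means of the 10 genes, 8.87 on the log2 scale, and Oat the narrowest, 0.97.

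Macrophages, as the mean of both subsets, lay below monocytes of the same tissue by a log2 difference of −7.52 ± 0.75 in LP (limma adjusted p = 2.46e-07) and −3.95 ± 0.75 in tumours (adjusted p = 2.97e-04). In LP 0 of the 10 genes were higher in macrophages and 2 lower (Nos2 and Slc7a2), beside 12.5% and 17% of all genes, and in tumours 1 was higher (Sat1) and 2 lower (Nos2 and Azin1), beside 16.8% and 21.4% of all genes. The tumour effect on Nos2 was larger in macrophages than in monocytes by 3.57 ± 1.06 (adjusted p = 0.0390). This call was lost in 16 of 28 alternatives (adjusted p 1.75e-04 to 0.118), among them the fit with the replicate block as a fixed term (3.22, adjusted p = 0.0713).

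Other cells could bring Nos2 into the macrophage libraries, so the levels of monocyte and neutrophil genes were set beside it. In tumour MHCIIlow macrophages Nos2 stood at 12.6% of its level in tumour monocytes, whereas Plac8 stood at 0.183%, Ly6c2 at 0.131%, Vcan at 0.0626% and Ccr2 at 3.26%. Against tumour neutrophils Nos2 stood at 9.29%, S100a8 at 0.0603%, S100a9 at 0.0552%, Retnlg at 0.0445%, Cxcr2 at 0.0513%, Ly6g at 0.0578%, Csf3r at 1.13% and Mmp9 at 17.0%. All of these markers but Mmp9 were therefore further below the sorted monocytes or neutrophils than Nos2 was. The summed neutrophil markers were 248.9 to 679.6 RPKM in tumour MHCIIlow macrophages, with 6 of 7 above 3 reads in every library, and 31.0 to 86.0 in LP MHCIIlow macrophages, with 5 of 7. Mmp9 carried most of the former sum, at a mean of 8.63 log2 RPKM. The summed monocyte markers were 3.92 to 6.06 RPKM in tumour and 2.35 to 6.24 in LP MHCIIlow macrophages. Epithelial markers (9) reached 15.8 to 222.2 RPKM in tumour and 25.4 to 38.5 in LP MHCIIlow macrophages, and the part of epithelial RNA in the Nos2 rise was not tested.

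**Figure D2:**
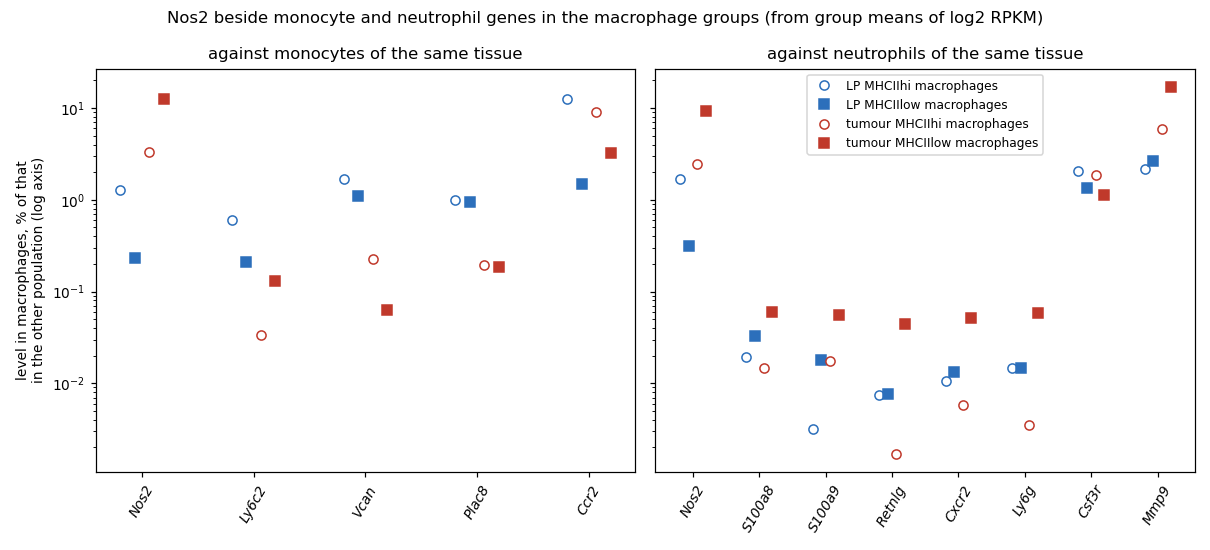
Level of Nos2 and of monocyte or neutrophil genes in 4 macrophage groups, as a percent of the level in monocytes (left) or neutrophils (right) of the same tissue, on a log axis, from group means of log2 RPKM. Nos2 in tumour MHCIIlow macrophages (12.6% and 9.29%) lies above the 4 monocyte genes and above 6 of the 7 neutrophil genes, all but Mmp9.

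The genes whose log2 RPKM ran most like that of Nos2 over the 24 libraries were Gpr141 (Pearson r = 0.93), H13 (0.92), AA467197 (0.92), Eno1b (0.91) and Eno1 (0.91), out of the 12878 genes tested. These libraries share populations, tissues and donor pools, and all 5 genes were higher on average in monocytes and neutrophils than in macrophages. Eno1 encodes a glycolytic enolase and Eno1b a nearly identical copy. In tumours Eno1 stood at 7.14 log2 RPKM in MHCIIlow and 6.12 in MHCIIhi macrophages, against 5.51 in both LP subsets.

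Slc7a2 (ENSMUSG00000031596.11, chr8:40862396-40922308, plus strand) encodes a cationic amino acid transporter. It was the only one of the 10 called in the same direction in 3 of the 4 populations. In MHCIIhi macrophages the LP libraries stood at 0.94, 1.00 and 0.52 log2 RPKM and the tumour libraries at 2.77, 2.62 and 2.44. MHCIIlow libraries had 0.02, 0.26 and 0.41 in LP against 2.52, 3.46 and 2.82 in tumour. Neutrophil libraries had −4.16, −2.93 and −1.66 in LP, from 12, 16 and 62 reads, against −1.31, −0.01 and −0.11 in tumour, from 46, 74 and 65 reads. In each of these populations all tumour libraries lay above all LP libraries.

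The rise of Slc7a2 was 1.79 ± 0.48 in MHCIIhi macrophages (3.46-fold, limma adjusted p = 0.0112), 2.71 ± 0.48 in MHCIIlow macrophages (6.53-fold, adjusted p = 3.06e-04) and 2.44 ± 0.48 in neutrophils (5.43-fold, adjusted p = 6.39e-04) on the log2 scale. In neutrophils it rested on few reads: it was 1.82 without LP library III and 3.07 without LP library V, and its call was lost on the recovered reads with voom (adjusted p = 0.07585) and on the compared libraries alone (adjusted p = 0.107, the highest of 15 alternatives, which ran from 4.74e-05). Monocytes differed by 0.59 ± 0.48 (adjusted p = 0.528), with LP libraries at 2.43, 2.11 and 1.88 and tumour libraries at 2.73, 2.25 and 3.20, which overlap. The difference of the tumour effect from that in monocytes did not pass the threshold in macrophages (1.66 ± 0.59, adjusted p = 0.0860) or neutrophils (1.85 ± 0.68, adjusted p = 0.0947). For macrophages it was passed in 5 of 28 alternatives, voom and the compared libraries alone among them (adjusted p 0.00139 to 0.218 over all 28). For neutrophils it was passed without LP library V (2.48, adjusted p = 0.0138) or tumour library I (2.27, adjusted p = 0.0379), and the highest of 22 alternatives was 0.901.

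In LP, macrophages lay below monocytes in Slc7a2 by −1.61 ± 0.42 on the log2 scale (limma adjusted p = 0.00579), whereas in tumours the 3 groups of macrophages and monocytes ran together from 2.61 to 2.93. Neutrophils were lowest in both tissues, by −5.05 ± 0.48 against monocytes in LP (adjusted p = 3.29e-08) and −3.20 ± 0.48 in tumours (adjusted p = 1.06e-05). The balance with Slc7a1, the transporter that most cells use, was chosen after its values were seen. Within a library Slc7a2 minus Slc7a1 was −1.76 ± 0.09 in LP and 0.78 ± 0.21 in tumour MHCIIhi macrophages, and −2.61 ± 0.57 in LP and 1.54 ± 0.25 in tumour MHCIIlow macrophages (log2 difference, SD, n = 3). In MHCIIlow macrophages Slc7a1 itself fell, by a log2 fold change of −1.44 ± 0.32 (limma adjusted p = 0.00217), and in MHCIIhi macrophages it differed by −0.74 ± 0.32 (adjusted p = 0.113). Of the exon bases of Slc7a2, 6.95% overlap Gm26584 on the opposite strand, from which reads cannot be told apart without strand.

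Asl (ENSMUSG00000025533.11, chr5:130011258-130029247, minus strand), the lyase that completes the remaking of arginine, varied little. Its group means ran from 2.25 log2 RPKM in LP neutrophils to 3.74 in tumour MHCIIlow macrophages. In neutrophils it stood at 2.27, 2.24 and 2.23 in LP and at 3.37, 2.53 and 2.70 in tumour, a rise of 0.62 ± 0.21 (limma adjusted p = 0.0285). That call was lost in 6 of 15 alternatives (adjusted p 0.00382 to 0.183), the highest of them without tumour library I, and also without each LP library in turn. In MHCIIlow macrophages the libraries did not overlap either, at 3.31, 3.35 and 3.03 in LP and 3.71, 3.80 and 3.70 in tumour, but the difference of 0.51 ± 0.21 did not pass the threshold (adjusted p = 0.0878, called in 3 of 15 alternatives, 0.0353 to 0.257). Neutrophils had less Asl than monocytes, by −1.24 ± 0.21 in LP (adjusted p = 4.93e-05) and −0.74 ± 0.21 in tumours (adjusted p = 0.00495, lost at 0.253 with libraries centred on their median and at 0.0579 on the compared libraries alone, with 3.40e-04 the lowest of 16 alternatives).

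**Figure D3:**
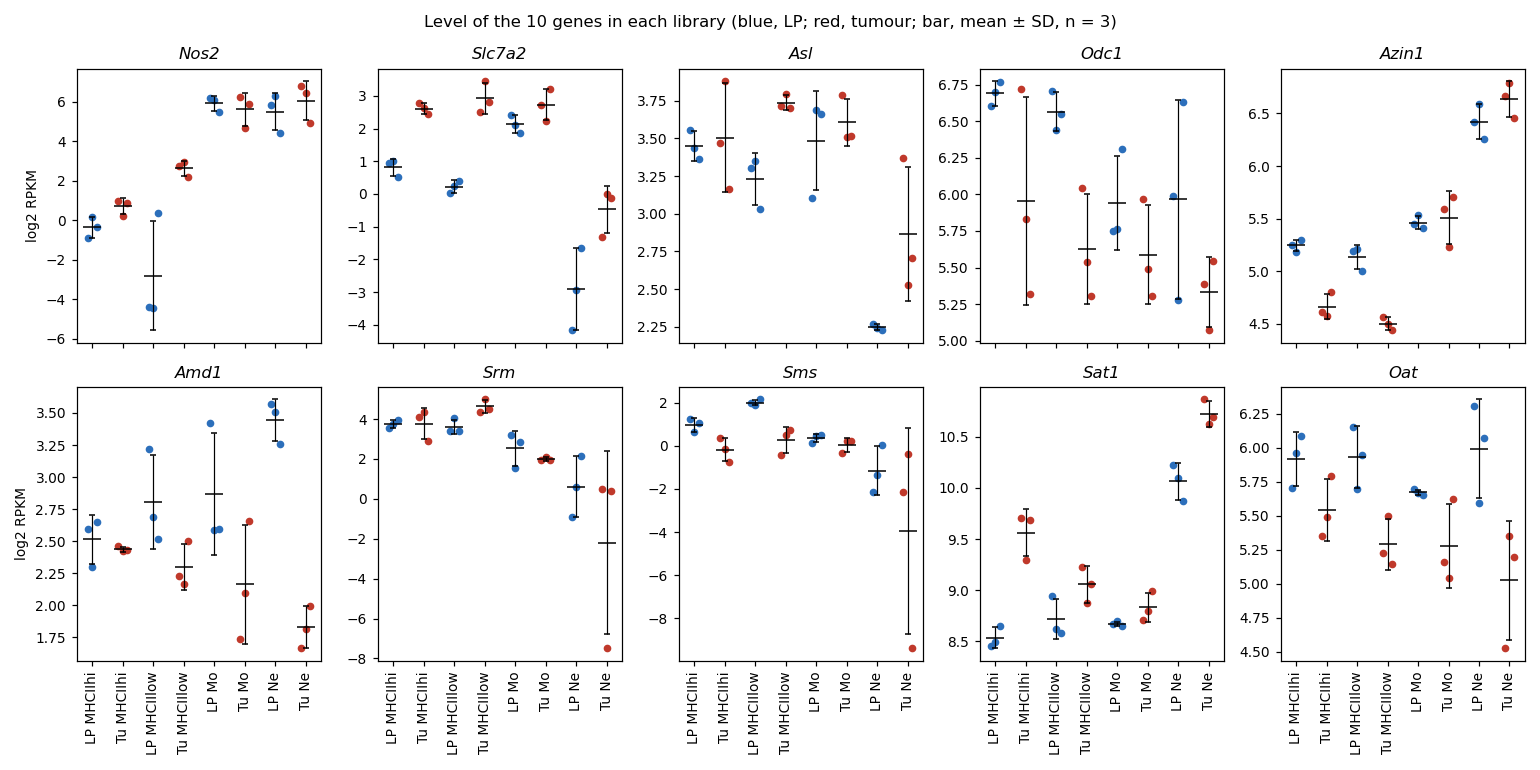
Level of each of the 10 genes in every library, in log2 RPKM, by group (blue, LP; red, tumour), with the mean and SD of 3 libraries. Sat1 lies between 8.45 and 10.87 in every library, Nos2 spans 8.87 between its lowest and highest group mean, and single tumour neutrophil libraries without reads pull down Srm and Sms.

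Promoters of 5 of the 10 genes were in the RefSeq table (GRCm38.p6), and the 120 bases before the start are shown for Amd1, Sat1, Oat and Sms, the 4 whose window lies wholly outside the GENCODE gene. The Odc1 window overlaps the first bases of the GENCODE gene and is not shown. The sequences run 5′ to 3′ on the minus strand, and capitals mark TGACG, the core of cyclic AMP response elements, or its reverse complement CGTCA. The windows are chr10:40302189-40302308 for Amd1, chrX:155216450-155216569 for Sat1, chr7:132576399-132576518 for Oat and chrX:157492288-157492407 for Sms.
Amd1: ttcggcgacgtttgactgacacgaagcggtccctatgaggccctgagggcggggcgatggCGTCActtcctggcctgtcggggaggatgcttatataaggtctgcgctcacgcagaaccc
Sat1: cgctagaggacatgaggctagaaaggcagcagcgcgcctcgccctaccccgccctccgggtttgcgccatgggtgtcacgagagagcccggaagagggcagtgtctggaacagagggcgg
Oat: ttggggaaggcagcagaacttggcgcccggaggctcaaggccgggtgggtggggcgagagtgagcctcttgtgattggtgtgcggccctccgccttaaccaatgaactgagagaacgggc
Sms: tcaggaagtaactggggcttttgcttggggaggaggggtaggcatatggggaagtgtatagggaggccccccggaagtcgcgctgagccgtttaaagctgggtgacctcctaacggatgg

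The motif was found at −60 from the start in Amd1 and in none of the other 3 windows, while Oat had it at 34 bases past the start. The Odc1 window, which is not shown, held the motif at −79. Of 32851 promoters in the table, 11.7% hold it in the 120 bases before the start, so a match describes only these letters, and the motif was searched with the direction of these genes known. An E-box (CACGTG) and a TATA box (TATAAA or TATATA) were also searched on both strands of the 300 bases around the start, where 7.15% and 17.1% of promoters hold them. Of the 4 genes, Sms had a match to the E-box and Amd1 to the TATA box. Another Sms promoter, which lies within the GENCODE gene and is not shown, had no match to either.

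Odc1 (ENSMUSG00000011179.7, chr12:17544794-17551505, plus strand) encodes ornithine decarboxylase, the rate-limiting enzyme of polyamine synthesis. Its LP MHCIIhi libraries stood at 6.60, 6.70 and 6.77 log2 RPKM and its tumour MHCIIhi libraries at 6.72, 5.83 and 5.32, which overlap through tumour library I. The LP MHCIIlow libraries stood at 6.71, 6.44 and 6.55 and the tumour MHCIIlow libraries at 6.04, 5.54 and 5.31, which do not. The mean was lower in tumour than in LP in all 4 populations, and the test was passed in MHCIIlow macrophages, with a fall of 0.94 ± 0.32 on the log2 scale (a log2 fold change of −0.94, limma adjusted p = 0.0368). This call was lost when any LP MHCIIlow library, or tumour library V or VII, was left out (adjusted p 0.0567 to 0.144, with 0.00844 the lowest of 15 alternatives). The log2 fold changes in MHCIIhi macrophages (−0.73 ± 0.32, adjusted p = 0.115), neutrophils (−0.63 ± 0.32, adjusted p = 0.138) and monocytes (−0.35 ± 0.32, adjusted p = 0.579) did not pass. Without tumour library I the MHCIIhi change was −1.12 and called (limma adjusted p = 0.0152, with 0.476 the highest of 15 alternatives), and without LP library IV the neutrophil change was −0.97 and called (adjusted p = 0.0261, with 0.530 the highest of 15). Of the 51-base stretches of Odc1 transcripts, the length of a read, 23.96% also occur in transcripts of other genes, mostly pseudogene copies such as Gm7993, so its reads may be split between them.

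Azin1 (ENSMUSG00000037458.10, chr15:38487427-38519266, minus strand), the antizyme inhibitor that keeps ornithine decarboxylase active, was among the least variable within groups. The LP MHCIIhi libraries were at 5.25, 5.19 and 5.30 log2 RPKM and the tumour MHCIIhi libraries at 4.61, 4.58 and 4.80. For MHCIIlow the LP libraries were at 5.19, 5.21 and 5.01 and the tumour libraries at 4.56, 4.50 and 4.44. All tumour libraries of both subsets lay below all LP libraries, and the log2 fold changes were −0.58 ± 0.13 (limma adjusted p = 0.00220) and −0.64 ± 0.13 (adjusted p = 7.92e-04), called in 15 of 15 alternatives in each subset.

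Monocytes differed in Azin1 by 0.05 ± 0.13 between tumour and LP (limma adjusted p = 0.884) and neutrophils by 0.22 ± 0.13 (adjusted p = 0.204), which was 0.46 and called with libraries centred on their median (adjusted p = 0.0196, with 0.792 the highest of 15 alternatives). The tumour effect in macrophages was lower than that in monocytes by a log2 difference of −0.66 ± 0.15 (adjusted p = 0.00803), called in 28 of 28 alternatives. Beside this, 1 of the 10 genes had a more positive tumour effect in macrophages than in monocytes (Nos2) and 1 a more negative effect (Azin1), against 3.55% and 5.64% of all genes. For neutrophils against monocytes none of the 10 had a different tumour effect, beside 3.61% of all genes with a more positive and 5.5% with a more negative effect, and for MHCIIlow against MHCIIhi macrophages none had, beside 1.13% and 0.326%. At an unadjusted p under 0.05 limma had 3 and 2 of the 10 genes in these comparisons, beside 3157 and 1642 of the 12878 genes tested. Voom called 0 and 1 of the 10, beside 373 of all genes higher and 418 lower in the former, and 330 and 209 in the latter.

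Neutrophils had the most Azin1 in log2 RPKM, for which their scaled library sizes lay below their reads on genes. The part of that scaling in the higher level was not tested. Neutrophils lay above monocytes by 0.96 ± 0.13 in LP (limma adjusted p = 2.24e-06) and 1.13 ± 0.13 in tumours (adjusted p = 2.25e-07), which quantile normalization reduced to 0.37 and 0.41 without loss of the call. The balance with Odc1 within a library followed: Odc1 minus Azin1 was 1.44 ± 0.08 in LP MHCIIhi and 1.43 ± 0.17 in LP MHCIIlow macrophages, 0.48 ± 0.37 in LP monocytes, 0.08 ± 0.42 in tumour monocytes, −0.46 ± 0.84 in LP neutrophils and −1.30 ± 0.40 in tumour neutrophils (log2 difference, SD, n = 3). Odc1 thus stood above Azin1 in all 12 macrophage libraries and below it in all 3 tumour neutrophil libraries.

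Sat1 (ENSMUSG00000025283.11, chrX:155213132-155216449, minus strand) encodes the acetyltransferase that starts polyamine breakdown and export, and was the most abundant of the 10 per length in every library. MHCIIhi libraries had 8.45, 8.50 and 8.65 log2 RPKM in LP against 9.70, 9.30 and 9.69 in tumour, a rise of 1.03 ± 0.15 (2.04-fold, limma adjusted p = 5.51e-05), called in 15 of 15 alternatives. MHCIIlow libraries had 8.94, 8.62 and 8.59 in LP against 9.23, 8.88 and 9.06 in tumour, a difference of 0.34 ± 0.15 (adjusted p = 0.116) that quantile normalization made a call (0.59, adjusted p = 0.00690, with 0.323 the highest of 15 alternatives). The difference between the effects in the 2 subsets, −0.69 ± 0.21, did not pass the threshold (adjusted p = 0.126), except with voom (adjusted p = 0.0367, with 0.335 the highest of 22 alternatives).

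In neutrophils Sat1 stood at 10.23, 10.10 and 9.87 in LP and at 10.87, 10.62 and 10.69 in tumour, a rise of 0.66 ± 0.15 (limma adjusted p = 0.00225). Neutrophils lay above monocytes by 1.39 ± 0.15 in LP (adjusted p = 2.10e-07) and 1.89 ± 0.15 in tumours (adjusted p = 2.40e-09). Quantile normalization, which forces the libraries onto the same distribution of values, reduced these 3 differences to 0.09, 0.13 and 0.19 and ended all 3 calls (adjusted p = 0.726, 0.524 and 0.326), while the lowest adjusted p over the alternatives was 3.12e-04, 1.24e-08 and 1.21e-10. The higher level of Sat1 in tumour macrophages than in tumour monocytes, 0.48 ± 0.13 (adjusted p = 0.00687), was lost with libraries centred on their median (adjusted p = 0.0955, with 3.05e-05 the lowest of 19 alternatives).

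**Figure D4:**
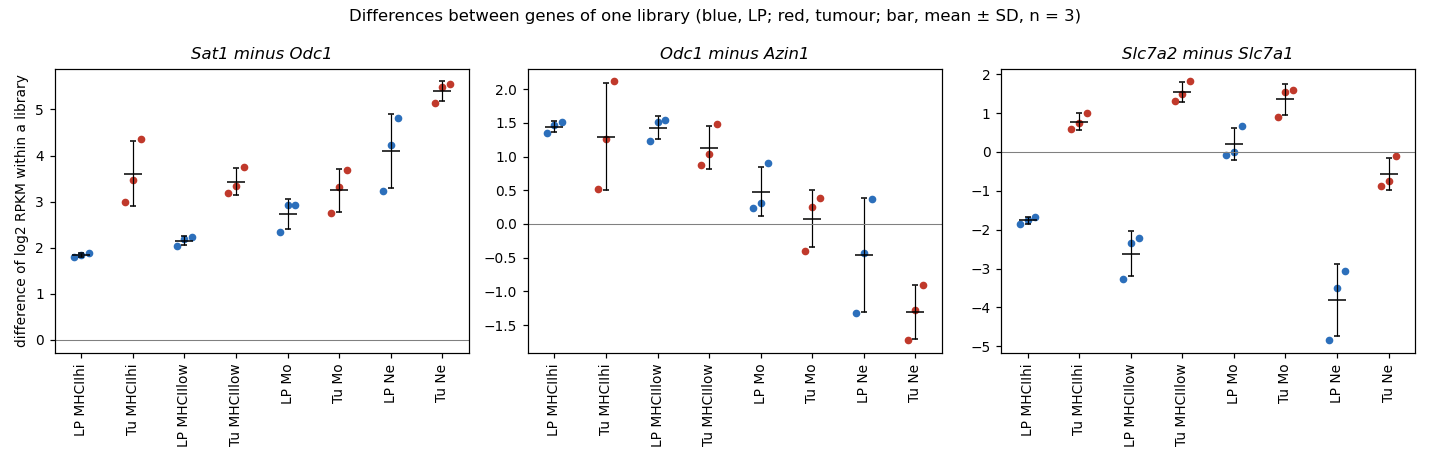
Difference of log2 RPKM between 2 genes of the same library by group (blue, LP; red, tumour), with the mean and SD of 3 libraries: Sat1 minus Odc1, Odc1 minus Azin1 and Slc7a2 minus Slc7a1. Sat1 minus Odc1 is 1.84 in LP MHCIIhi macrophages and 5.39 in tumour neutrophils, and Slc7a2 minus Slc7a1 changes sign between LP and tumour macrophages.

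Sat1 minus Odc1 sets the gene of polyamine breakdown against that of synthesis. It was 1.84 ± 0.04 in LP and 3.61 ± 0.70 in tumour MHCIIhi macrophages, 2.15 ± 0.10 and 3.43 ± 0.29 in MHCIIlow macrophages, 2.73 ± 0.33 and 3.25 ± 0.47 in monocytes, and 4.10 ± 0.80 and 5.39 ± 0.22 in neutrophils (log2 difference, SD, n = 3, LP first). The tumour libraries lay above the LP libraries without overlap in both macrophage subsets and in neutrophils, and overlapped with them in monocytes. These differences are a description and were not tested.

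Amd1 (ENSMUSG00000075232.4, chr10:40287458-40302186, minus strand) encodes S-adenosylmethionine decarboxylase, which supplies the group that lengthens polyamines. In neutrophils it stood at 3.57, 3.50 and 3.26 log2 RPKM in LP and at 1.67, 1.82 and 2.00 in tumour, which is 3.07-fold lower (log2 fold change −1.62 ± 0.25, limma adjusted p = 5.72e-05), called in 15 of 15 alternatives. In monocytes, with 3.42, 2.59 and 2.60 in LP and 1.74, 2.10 and 2.66 in tumour, the groups overlapped and the difference was −0.70 ± 0.25 (adjusted p = 0.0826), which without tumour library V was −0.95 and called (adjusted p = 0.0286, with 0.381 the highest of 15 alternatives). The difference between the effects in neutrophils and monocytes, −0.91 ± 0.35, did not pass the threshold (adjusted p = 0.110) except without LP monocyte library III (−1.19, adjusted p = 0.0365, with 0.513 the highest of 22), and the macrophage subsets gave −0.08 ± 0.25 (MHCIIhi, adjusted p = 0.888) and −0.51 ± 0.25 (MHCIIlow, adjusted p = 0.153). In LP, neutrophils lay 0.58 ± 0.25 above monocytes (adjusted p = 0.0552), which became a call with the replicate block as a fixed (adjusted p = 0.04195) or random term (adjusted p = 0.04802), with 0.00698 to 0.194 over all 16 alternatives. Amd1 is uncertain in level, since 77.9% of its 51-base stretches also occur in its near-identical copy Amd2 or in pseudogenes.

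Srm (ENSMUSG00000006442.10, chr4:148591503-148594993, plus strand), spermidine synthase, was most abundant in macrophages. The tumour MHCIIlow libraries stood at 4.38, 4.99 and 4.53 log2 RPKM, above the LP MHCIIlow libraries at 3.41, 4.03 and 3.41, but the difference of 1.02 ± 1.31 did not pass the threshold (limma adjusted p = 0.645). It was called on the compared libraries alone (adjusted p = 0.0443) and with voom (adjusted p = 0.0347, the lowest of 15 alternatives, which ran to 0.786). The spread is shared over all groups, and Srm had 28, 0 and 16 reads in tumour neutrophil libraries I, II and V, or 0.49, −7.50 and 0.39 log2 RPKM. LP neutrophils had 20, 32 and 152 reads. Sms (ENSMUSG00000071708.7, chrX:157443855-157492287, minus strand), spermine synthase, had 17, 38 and 0 reads in the same tumour neutrophil libraries and 32, 32 and 134 in LP neutrophils.

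In tumours, neutrophils lay below monocytes in Srm by −4.20 ± 1.31 on the log2 scale (limma adjusted p = 0.00953) and in Sms by −4.01 ± 1.34 (adjusted p = 0.0150). The library without reads set most of each size: without tumour neutrophil library II the difference in Srm was −1.55 (adjusted p = 0.0380), and without library V that in Sms was −1.29 and not called (adjusted p = 0.0766). On the compared libraries alone neither was called (adjusted p = 0.189 and 0.226, with 0.00154 and 5.34e-04 the lowest over the alternatives). Counting all 10 genes, 2 were higher and 2 lower in neutrophils than in monocytes of LP, beside 24.1% and 30.4% of all genes, and 2 were higher and 4 lower in tumours, beside 23.3% and 34.9%.

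Sms went the other way from Srm in MHCIIlow macrophages: its LP libraries stood at 1.98, 1.90 and 2.17 log2 RPKM and its tumour libraries at −0.42, 0.50 and 0.75, without overlap, a difference of −1.74 ± 1.34 that did not pass the test (limma adjusted p = 0.398). Voom, the compared libraries alone and both added pseudocounts (0.1 and 1 RPKM) made it a call, 4 of 14 alternatives (adjusted p 4.62e-04 to 0.0332, with 0.596 the highest of all 14). Within a library, Srm minus Sms was 1.60 ± 0.46 in LP and 4.36 ± 0.53 in tumour MHCIIlow macrophages, and 2.78 ± 0.42 and 3.94 ± 0.46 in MHCIIhi macrophages (log2 difference, SD, n = 3), and the libraries of the tissues did not overlap in either subset. The same difference ran from −7.13 to 9.79 in tumour neutrophils, where it rests on the libraries without reads. Of the 51-base stretches of Sms, 17.4% also occur in other genes, mainly the pseudogene Sms-ps.

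Oat (ENSMUSG00000030934.8, chr7:132557478-132576398, minus strand), ornithine aminotransferase, had a lower mean in tumour than in LP in all 4 populations. In neutrophils it stood at 6.31, 5.59 and 6.07 log2 RPKM in LP and at 4.53, 5.35 and 5.20 in tumour, without overlap (log2 fold change −0.97 ± 0.21, limma adjusted p = 0.00173, lost at 0.0780 on the compared libraries alone, with 6.58e-04 the lowest of 15 alternatives). MHCIIlow libraries had 6.15, 5.70 and 5.95 in LP against 5.22, 5.50 and 5.15 in tumour, a difference of −0.64 ± 0.21 (adjusted p = 0.0334), and that call was lost without LP library II or IV or tumour library I or VII (adjusted p 0.0776 to 0.134, with 0.00944 the lowest of 15 alternatives). MHCIIhi macrophages (−0.37 ± 0.21, adjusted p = 0.254) and monocytes (−0.40 ± 0.21, adjusted p = 0.291) did not pass, although the monocyte libraries did not overlap, at 5.69, 5.67 and 5.65 in LP and 5.16, 5.04 and 5.62 in tumour.

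Between the macrophage subsets none of the 10 genes was called. In tumours 0.567% of all genes tested were higher in MHCIIlow than in MHCIIhi macrophages and 0.567% lower, and in LP 2.13% and 5.57%. Limma gave an unadjusted p under 0.05 for 2 of the 10 genes in tumours and 1 in LP, beside 1442 and 2623 of the 12878 genes tested. Voom called 1 of the 10 in each, beside 241 and 1840 of all genes. Nos2 differed by 1.92 ± 0.87 in tumours (limma adjusted p = 0.399) and −2.44 ± 0.87 in LP (adjusted p = 0.0997). Without LP MHCIIlow library IV the LP difference was called (adjusted p = 2.29e-04, the lowest of 16 alternatives, which ran to 0.669). Sat1 was lower in MHCIIlow libraries of tumours, at 9.23, 8.88 and 9.06 against 9.70, 9.30 and 9.69, without overlap but short of the threshold (−0.51 ± 0.15, adjusted p = 0.119, called with voom at 0.0464, with 0.702 the highest of 16 alternatives).

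The other genes of the pathway were taken from 5 lists (arginine transport, arginine and ornithine enzymes, nitric oxide and its cofactor, polyamine and methylthioadenosine metabolism, and hypusine), of which 44 of 58 genes could be tested. Between tumour and LP, 5 rose and 4 fell in MHCIIhi macrophages, 9 rose and 5 fell in MHCIIlow macrophages, 0 rose and 2 fell in monocytes, and 7 rose and 8 fell in neutrophils. The shares called higher and lower over all genes, for reading these counts and those by list, were 8.01% and 11.5%, 11.5% and 11.8%, 4.86% and 4.43%, and 13.1% and 19% in that order. The median log2 fold change over the lists was 0.50, 0.40, 0.32 and 0.23 in that order, against 0.00, 0.06, 0.00 and −0.12 over all genes tested.

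By list, 13 polyamine and methylthioadenosine genes held 2 rises and 2 falls in each macrophage subset, 1 fall in monocytes, and 6 rises and 2 falls in neutrophils. The 10 genes of nitric oxide and its cofactor held 1 rise and 1 fall in MHCIIhi macrophages, 1 rise and 2 falls in MHCIIlow macrophages, 1 fall in monocytes and 2 falls in neutrophils. The 7 transporters held 1 rise and 1 fall in each macrophage subset and 2 falls in neutrophils, and the 4 hypusine genes 1 fall in neutrophils.

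The list of arginine and ornithine enzymes was chosen with earlier results of these data known. From these data the authors had reported higher Arg1, Arg2 and argininosuccinate synthase transcripts in tumour macrophages. The count of this list is therefore a description and not independent support. Among 10 tested arginine and ornithine enzymes, 5 rose and none fell in MHCIIlow macrophages, beside 11.5% of all genes called higher and 11.8% lower. They were led by Ass1, the synthase upstream of Asl (1.29 to 5.69 log2 RPKM, a log2 fold change of 4.40 ± 0.43, limma adjusted p = 3.69e-07), Arg1 (7.41 to 9.64, 2.23 ± 0.57, adjusted p = 0.00716) and Arg2 (3.46 to 5.45, 1.99 ± 0.42, adjusted p = 0.00155), the arginases. On the compared libraries alone Arg1 and Arg2 were not called (adjusted p = 0.153 and 0.0519, each the highest of 15 alternatives, with 9.47e-04 and 5.95e-04 the lowest), and without LP library II the Arg1 change was 1.24. Nos2 stayed below Arg1 in every macrophage and monocyte group, by −7.00 ± 0.35 in tumour MHCIIlow macrophages and −10.21 ± 2.06 in LP MHCIIlow macrophages (log2 difference, SD, n = 3), and stood above it in LP neutrophils on average (1.12 ± 1.71). The LP neutrophil libraries ran from −0.81 to 2.46. In tumour neutrophils Nos2 stood below Arg1, by −0.82 ± 0.70 (−1.55 to −0.14). The largest falls in MHCIIlow macrophages were those of Pcbd1, which recycles tetrahydrobiopterin, the cofactor of nitric oxide synthase (−2.70 ± 0.42, adjusted p = 7.22e-05), Ddah2, which removes methylated arginines that inhibit the synthase (−2.18 ± 0.61, adjusted p = 0.0129), and Mat2a, which makes S-adenosylmethionine (−1.92 ± 0.19, adjusted p = 4.86e-07).

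In MHCIIhi macrophages the largest rises were those of Mri1, of the methionine salvage pathway (1.39 ± 0.35, limma adjusted p = 0.00693), Gatm, which uses arginine for creatine synthesis (1.36 ± 0.28, adjusted p = 0.00170), and Nosip, a partner of nitric oxide synthase (0.93 ± 0.16, adjusted p = 3.08e-04). The largest falls were those of Smox, spermine oxidase (−1.58 ± 0.22, adjusted p = 2.54e-05), Gch1, the first enzyme of the cofactor of nitric oxide synthase (−1.39 ± 0.42, adjusted p = 0.0230), and Slc3a2, the heavy chain of several amino acid transporters (−0.79 ± 0.14, adjusted p = 4.11e-04). The Gch1 call was lost in 4 of 15 alternatives (adjusted p 0.00762 to 0.172).

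In monocytes Mat2a fell, with a log2 fold change of −0.97 ± 0.19 (limma adjusted p = 0.00275). In neutrophils Arg1 rose by 2.49 ± 0.57 (adjusted p = 0.00248, called in 15 of 15 alternatives). The other named neutrophil calls rested on few reads and were each lost in at least 4 alternatives. Mtap, which recycles the by-product of polyamine synthesis, had 0 to 24 reads in LP and 10 to 30 in tumour (adjusted p = 0.0276), and Paox, a polyamine oxidase, 0 and 0 to 4 (adjusted p = 0.00641), for which no fold is given. Slc25a29, a mitochondrial carrier of basic amino acids, had 33 to 68 reads in LP and 0 to 12 in tumour (adjusted p = 0.0434). Slc7a6, a transporter of basic amino acids, differed by −1.54 ± 0.50 (adjusted p = 0.0226) with groups that overlapped.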

How the data were processed

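RNA of 24 libraries in 8 groups was measured by a modified SMARTSeq v2 protocol. Per the labels and methods, the authors used STAR 2.3 for alignment (GRCm38/mm10) and featureCounts 1.5 for counts per GENCODE gene, and dropped genes with few reads, and the deposited values are log2 RPKM, from which 99.9% of 415224 values returned whole reads (within 0.01 reads, after a prior of 0.25 reads). Reads served for depth, low values and voom. The labels also name edgeR, without a version. Comparisons used limma 3.58.1 (R 4.3.3; 8 group means, trend) over 12878 genes with a mean of at least 1 RPKM in at least 1 group, with Benjamini-Hochberg adjustment and a threshold of 0.05. The fit was tested on simulated data. The 10 genes and the lists were chosen with earlier results of these data known. Named pathway genes were the 3 largest called rises and falls in each tumour against LP comparison, and the 5 genes most correlated with Nos2. Some listed genes that are counted in the lists are not reported by name here. Donor pool numbers pair libraries within a tissue: over 29 pairs with the same number, deviations from group means correlated at −0.0661 to 0.255 (median 0.0169). Alternatives were log2(RPKM + 1) and log2(RPKM + 0.1), other filters, median centring, quantile normalization, the compared libraries alone, voom, the replicate block as a random or fixed term, and leaving out each library. Genes were placed with GENCODE M21, matched without version. Of the 58 listed pathway genes, 51 were in the deposited table and 44 passed the filter and were tested, so the others were not analysed here. Tables and figures used python 3.11.15, numpy 2.4.6, pandas 2.3.3 and matplotlib 3.10.9.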

Additional observations from a re-analysis of the deposited data

Results flagged for a closer look

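The tumour effect on Nos2 was larger in macrophages than in monocytes by 3.57 on the log2 scale (interaction term in limma, adjusted p = 0.0390). Macrophages are here the mean of 2 unlike subsets. The rise was 5.44 in MHCIIlow macrophages, whose LP libraries II, III and IV had 8, 4 and 97 reads. In MHCIIhi macrophages it was 1.08 and did not pass the threshold (limma adjusted p = 0.453). Macrophages lay below monocytes by −7.52 in LP and by −3.95 in tumours. All 6 tumour macrophage libraries lay above the LP libraries of their subset, while the monocyte libraries of the tissues overlapped. The interaction call was lost in 16 of 28 alternatives.

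The tumour effect on Azin1 differed between the same populations by −0.66 on the log2 scale (interaction term in limma, adjusted p = 0.00803), with macrophages at −0.27 against monocytes in LP and −0.93 in tumours. All 6 tumour macrophage libraries lay below the LP libraries of their subset, and the monocyte libraries overlapped. The call held in 28 of 28 alternatives.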

How the results depend on the processing

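Of 130 pairs of gene and comparison, 30 were called, 16 of them in every alternative, and 32 of the 100 others were called in at least 1. The cause of the changes below was not tested.

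In numbers of the 10 genes called, voom gave 8 in tumour against LP MHCIIlow macrophages (5 in limma on log2 RPKM), 3 in neutrophils (5), 1 in MHCIIlow against MHCIIhi macrophages of tumours (0) and 1 of LP (0), 6 in LP macrophages against monocytes (2), and 1 (0) and 4 (2) in the differences of tumour effects, MHCIIlow minus MHCIIhi and macrophages minus monocytes. Over all 12878 genes voom called 2109 higher and 2010 lower in the first of these (1483 and 1520 on log2 RPKM), and 1374 and 1394 in neutrophils (1690 and 2452). Between the subsets it called 241 (146) in tumours and 1840 (991) in LP. LP macrophages against monocytes had 2355 higher and 2759 lower (1610 and 2186). The differences of effects had 539 (188), and 719 higher and 1045 lower (457 and 726). The compared libraries alone gave 2 in tumour against LP neutrophils, 6 in LP macrophages against monocytes and 3 in tumour neutrophils against monocytes (6). Over all genes they gave 2366 (4142) in the first, 2102 higher and 2215 lower in the second, and 2941 and 3356 (2997 and 4489) in the third. Quantile normalization gave 4 in LP and 5 in tumour macrophages against monocytes (2 and 3), and 1 and 4 in those differences of effects. Over all genes it called 2028 higher and 2059 lower in LP, and 2296 and 2778 in tumours (2167 and 2760). In the differences of effects it called 338, and 605 higher and 933 lower. Log2(RPKM + 1) gave 1 in MHCIIlow against MHCIIhi macrophages of LP, 4 in LP macrophages against monocytes and 7 in LP neutrophils against monocytes (4). Over all genes it called 1695 in the first, 2305 higher and 2575 lower in the second, and 3516 and 4051 (3103 and 3913) in the third. The fixed replicate block gave 1 in the difference of effects, macrophages minus monocytes (2), beside 364 of all genes higher and 587 lower. It also made Odc1 a call in LP macrophages against monocytes (0.74, limma adjusted p = 0.0125, with 0.00268 to 0.205 over 19 alternatives), and both blocks Amd1 in LP neutrophils against monocytes. The pairing changed no other call that the text gives. The fixed block could not be fitted to tumour against LP, since each pool lies within a tissue and the block would take up that difference.

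In MHCIIhi macrophages, Asl turned to −0.0018 and Srm to −0.0465 with libraries centred on their median, and Srm to −0.0657 with the random replicate block, all near 0. Leaving out 1 library gave ranges there of −0.135 to 0.225 for Asl and −0.274 to 0.45 for Srm, and in monocytes of −0.623 to 0.154 for Nos2, −0.0697 to 0.221 for Asl and −0.0519 to 0.187 for Azin1. It gave 3 to 4 genes called in MHCIIlow macrophages, 0 to 1 in monocytes and in MHCIIlow against MHCIIhi macrophages of LP, and 0 to 1, 1 to 3 and 0 to 1 in the differences of effects (MHCIIlow minus MHCIIhi, macrophages minus monocytes, neutrophils minus monocytes). The shares over all genes with a library left out are not given here, so these counts are not read as a trait of the genes.

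Over all genes, centring moved the median log2 fold change by 0.24 in tumour against LP neutrophils, 0.29 and 0.45 in LP and tumour neutrophils against monocytes, and −0.17 in tumour macrophages against monocytes. The share of calls that were higher went from 40.8% to 57.05%, 44.23% to 54.11%, 40.03% to 53.07% and 43.98% to 34.12%, and in the differences of effects from 38.63% to 26.3% (macrophages minus monocytes) and 39.64% to 53.95% (neutrophils minus monocytes). Under quantile normalization it went from 27.65% to 39.5% in MHCIIlow against MHCIIhi macrophages of LP, and from 77.66% to 60.95% in the difference between their effects. The count of calls moved by over 1.5 times in 14 of 126 pairs of comparison and alternative, among them 146 to 4 (MHCIIlow against MHCIIhi macrophages of tumours) and 4142 to 2366 (tumour against LP neutrophils) on the compared libraries alone, and 2511 to 3797 (tumour against LP MHCIIhi macrophages) with voom. Sms was not tested at a mean of at least 5 RPKM. Few reads limit Srm, Sms and Slc7a2 in neutrophils and Nos2 in LP MHCIIlow macrophages.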
